A study of Oryza sativa with 2 samples.

Results

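A set of 96 rice gene models had no count at all in the salinity library although each had at least 200 counts in the control library. They were chosen on those counts from the 55986 gene models of the deposited table, of which 17553 had at least 200 control counts. LOC_Os02g52700, LOC_Os02g52710 and LOC_Os01g28450 were left out by name, and 2 of these 3 meet both counts. Because the counts chose the members, their absence from the salinity library is a description and carries no test.

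Messenger RNA was sequenced from seedlings of the rice cultivar CARI Dhan 7 at 14 days. The salinity seedlings germinated and grew in a mixture of sodium, calcium and magnesium salts with an electrical conductivity of 6 dS/m, and the control seedlings in distilled water (0 dS/m). Each group had 1 library, so nothing below has a replicate check and no p-value is given. The sources used here do not say how many plants went into a library or which organs were taken.

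Presence and absence of a transcript can follow the tissues sampled, the stage of the seedling and the response to salt. A germinating rice grain makes alpha-amylases and proteinases that mobilise its reserves, while shoots and roots build cuticle, epidermis and vascular tissue. In RNA taken from seedlings, fewer cells of a type and less RNA per cell cannot be told apart.

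The salinity library held 15031328 counts and the control library 45359020. No odd number occurred among the 26437 nonzero salinity counts, while 61.7% of nonzero control counts were even, so a read pair may add several counts. A read-pair scale was assumed after seeing the values, with 4 salinity counts or 2 control counts taken as 1 pair. Not every value fits it: the 86 salinity counts of LOC_Os10g06000 are not a multiple of 4, and many control counts are odd. The floor for a gene at 0 was set at 3 pairs, which is 12 salinity counts. This floor, the fold bounds and the read-pair intervals rest on the assumed scale. Levels are given as CPM, counts per 1000000 counts of the library after scaling the library sizes by the trimmed mean of M values (TMM). Levels of different genes are compared per kilobase of exon. A model is called measured when its counts summed over both libraries reach 10, and lower or higher when the whole 95% counting interval of its ratio lies beyond 2-fold (the size rule). Leaf markers were abundant in both libraries: the chlorophyll-binding protein gene CAB2R stood at 8603 CPM in the salinity library and 8605 CPM in the control. The 4 leaf markers together stood at 44081 CPM in the salinity library and 29490 CPM in the control. By the size rule RBCS2 was higher, at 16149 CPM in the salinity library and 8002 CPM in the control, though not on the read-pair scale. CAB1R, CAB2R and LHCB2 were neither higher nor lower. The 4 root markers together stood at 613.0 CPM in the salinity library and 908.4 CPM in the control, and by the size rule NAS1 and NAS2 were lower, NRT2.1 higher and LSI1 neither. The 4 grain markers together stood at 10.2 CPM in the salinity library and 37.1 CPM in the control.

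Had each gene kept its share of the library, the 96 members would have received between 66.3 and 6724 salinity counts each, by the ratio of the library totals of 0.331. The median expectation was 139.2 salinity counts against a median of 420 control counts. On the read-pair scale the expectation ran from 16.6 to 1681 pairs, with a median of 34.8. All expectations therefore lay above the floor, which follows from the minimum control count of the rule. The fold bound is the control CPM over the CPM of the floor, with the control count taken as exact. It ran from 4.63 to 469.9 with a median of 9.73, and every fold given below as a minimum is this bound. The 95% read-pair intervals, which include counting error in the control, end at smaller folds. Their upper ends were log2 ratios of -1.89 for DL (lowest bound) and -8.58 for LOC_Os02g44320 (highest bound). In sum, 45366 salinity counts were expected and 0 were observed, against 136897 control counts, which is 0.302% of the control library. Of all models with at least 200 control counts, 0.558% had no salinity count, a share that follows from the rule.

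**Figure D1:**
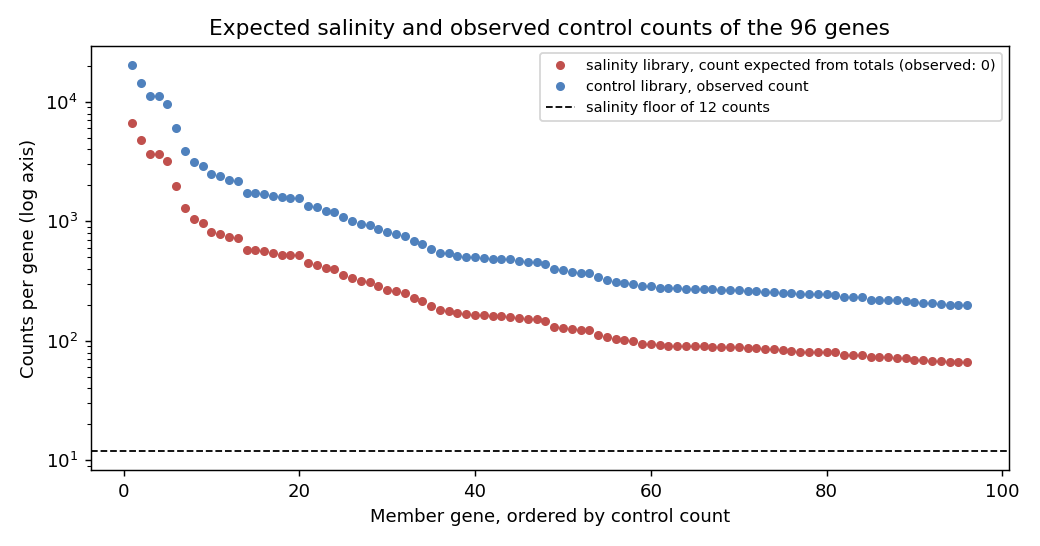
Counts of the 96 genes on a log axis, ordered by control count: red points are the salinity counts expected from the library totals (0 were observed for each), blue points the observed control counts, and the dashed line the salinity floor of 12 counts. The expected counts run from 6724 down to 66.3, all above the floor.

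The set was dominated by a few abundant transcripts. Its 20 most abundant members held 75.6% of its control counts, its 4 most abundant had 11159 to 20292 each, 26 had at least 1000, and 48 had under 400. LOC_Os02g44320 (chromosome 2, 26814556 to 26815543, plus strand) led with 0 salinity and 20292 control counts, which is 409.7 CPM in the control and at least 469.9-fold lower in the salinity library. It ranked 225 of all models by control count, and 6724 salinity counts were expected of it. LOC_Os01g14850 (chromosome 1, 8305547 to 8306555, minus strand) had 0 salinity and 14388 control counts, with 4768 expected, and was at least 333.2-fold lower. Both are models with 1 exon block of about the same exon length, 988 and 1009 bases.

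EP3A (LOC_Os01g67980, chromosome 1, 39501330 to 39502978, plus strand), also known as REP1, encodes a cysteine proteinase of the papain type that digests storage protein in germinating rice grain. It had 0 salinity and 11160 control counts, where 3698 salinity counts were expected, and was at least 258.5-fold lower. Among the grain markers, the alpha-amylase gene AMY3E was also lower, with 16 salinity and 1098 control counts, a log2 ratio of -4.21 and a counting interval of -6.13 to -2.89. AMY3D, another alpha-amylase gene, had 96 salinity and 572 control counts, and its log2 ratio of -0.72 did not pass the size rule. The glutelin genes GLUA2 and GLUA1, for seed storage proteins, had 28 and 0 salinity counts against 148 and 19 control counts, and neither passed it. Of the 4 grain markers, 1 was thus lower. The part of remaining grain tissue in the EP3A result was not tested.

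LOC_Os10g05990 and LOC_Os10g05980 lie next to each other on chromosome 10 (3020701 to 3022137 and 3016886 to 3018074, both plus strand). LOC_Os10g05990 had 0 salinity and 11159 control counts, and LOC_Os10g05980 had 0 salinity and 9684 control counts. They were at least 258.4-fold and 224.3-fold lower in the salinity library. Per kilobase of exon they stood at 207.6 and 187.8 CPM in the control, close to each other, and LOC_Os02g44320 at 414.7.

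Below these came LOC_Os02g57110, with 0 salinity and 6017 control counts, and LOC_Os01g10490, with 0 salinity and 3899. LOC_Os08g26230, a long model of 4347 exon bases, had 0 salinity and 3159 control counts, and its level per kilobase was only 14.7 CPM in the control. LOC_Os02g20540 had 0 salinity and 2928 control counts, and LOC_Os10g21670 had 0 and 2473. These 5 genes were at least 139.3-fold, 90.3-fold, 73.2-fold, 67.8-fold and 57.3-fold lower in that order. The remaining members of the 20 most abundant had between 1578 and 2378 control counts. They were ILL3, LOC_Os10g05750, LOC_Os04g28520, LOC_Os08g03690, LOC_Os08g16260, LOC_Os06g16640, LOC_Os04g28620, LOC_Os06g21270, ROC3 and LOC_Os07g40900.

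The deposited table gives locus identifiers without names, and 11 members could be named by a check of 12 hand-written names against the RefSeq gene table of assembly ASM3414082v1. The other 85 members are given by locus. Apart from EP3A, the named members fall into auxin metabolism, protein dephosphorylation, amine metabolism, transcriptional regulation of shoot tissues, lipid and diterpenoid metabolism, copper transport and an acyltransferase.

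ILL3 and PP2C73 encode enzymes that act on auxin conjugates and on phosphorylated proteins. ILL3 (LOC_Os03g62060, chromosome 3, 35160385 to 35163217), which belongs to the hydrolases that release auxin from amino acid conjugates, had 0 salinity and 2378 control counts, where 788.0 were expected, and was at least 55.1-fold lower. PP2C73 (LOC_Os11g01790, chromosome 11, 422275 to 425470), a type 2C protein phosphatase gene, had 0 salinity and 518 control counts, where 171.7 were expected. The PP2C73 absence rests on 42.9 expected read pairs and that of ILL3 on 197.0.

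ADC2 and GABA-T act in amine metabolism. ADC2 (LOC_Os04g01690, chromosome 4, 463738 to 467284), an arginine decarboxylase gene of polyamine synthesis, had 0 salinity and 786 control counts, with 260.5 expected, and was at least 18.2-fold lower. GABA-T (LOC_Os02g02210, chromosome 2, 679445 to 697350), which encodes a transaminase that breaks down the stress metabolite gamma-aminobutyrate, had 0 salinity and 206 control counts, with 68.3 expected. It was at least 4.77-fold lower, and at 206 counts it sits just inside the rule. With 18 exon blocks it is also the most divided model of the set.

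Regulators of shoot tissues were ROC3 and DL. ROC3 (LOC_Os10g42490, chromosome 10, 22910460 to 22916203) encodes a homeodomain factor of the family expressed in the outermost cell layer of rice organs. It had 0 salinity and 1582 control counts, with 524.3 expected, and was at least 36.6-fold lower. DL (LOC_Os03g11600, chromosome 3, 6041245 to 6048687), the DROOPING LEAF gene, encodes a YABBY factor needed for the leaf midrib and the carpel. It had 0 salinity and 200 control counts, the lowest control count in the set, with 66.3 expected, and was at least 4.63-fold lower.

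Lipid and diterpenoid metabolism was represented by KCS20 and CYP76M6. KCS20 (LOC_Os10g28060, chromosome 10, 14560601 to 14565737), a ketoacyl-CoA synthase gene of the elongation of very-long-chain fatty acids, had 0 salinity and 1353 control counts, with 448.4 expected, and was at least 31.3-fold lower. CYP76M6 (LOC_Os02g36280, chromosome 2, 21904354 to 21906350), a cytochrome P450 gene of the diterpenoid gene cluster on chromosome 2, had 0 salinity and 278 control counts, with 92.1 expected, and was at least 6.44-fold lower. Farther off toward the start of the chromosome, LOC_Os02g36210 had 16 salinity and 1774 control counts and LOC_Os02g36190 had 8 and 875. The nearest measured models on either side, LOC_Os02g36220 and LOC_Os02g36300, were not called lower, at 28 salinity against 32 control counts and at 24 against 68.

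AT1 (LOC_Os10g11980, chromosome 10, 6639765 to 6645325), an acyltransferase gene whose activation gives the lesion-mimic phenotype of a rice Spl18 mutant, had 0 salinity and 931 control counts, with 308.5 expected, and was at least 21.6-fold lower. COPT2 (LOC_Os01g56430, chromosome 1, 32526290 to 32526942), a copper transporter gene, had 0 salinity and 208 control counts, with 68.9 expected, and was at least 4.82-fold lower. Its next measured neighbours were not low in the salinity library: LOC_Os01g56420 had 740 salinity and 1295 control counts, and LOC_Os01g56450 had 860 salinity and 256 control counts.

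Per kilobase of exon, some short models outside the 20 most abundant also stood high in the control. LOC_Os10g09920, with 445 exon bases, had 0 salinity and 950 control counts and 43.1 CPM per kilobase in the control. LOC_Os06g31280, with 408 exon bases, had 0 salinity and 508 control counts and 25.1 CPM per kilobase. LOC_Os04g55980, the shortest member at 234 exon bases, had 0 salinity and 245 control counts and 21.1 CPM per kilobase. The next were LOC_Os05g15850, LOC_Os02g40440, LOC_Os09g28420, LOC_Os12g17540, LOC_Os12g25450, KCS20 and LOC_Os01g32270, at 14.5 to 19.0 CPM per kilobase. The 66 members outside both groups had 200 to 1314 control counts and stood at 1.16 to 13.7 CPM per kilobase in the control.

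The rule cuts through a continuous range. Just inside it were DL with 200 control counts, LOC_Os01g32864 and LOC_Os01g33160 with 201 each, LOC_Os04g43580 with 204 and GABA-T with 206. Just outside, with 0 salinity counts, were LOC_Os01g28474 and LOC_Os09g10980 with 198 control counts each, LOC_Os06g05440 with 197, and LOC_Os02g15350 and LOC_Os06g48170 with 192 each. In all, 87 models had 0 salinity counts and at least 100 but under 200 control counts. Another 73 models with at least 200 control counts had 2 to 4 salinity counts. Of these, LOC_Os03g45619 had 4 salinity and 6070 control counts, LOC_Os04g39150 had 4 and 5858, LOC_Os10g05950 had 4 and 5348, LOC_Os10g21790 had 4 and 4881, and LOC_Os01g59870 had 4 and 4587. These 5 models differ from the members by about 1 read pair in the salinity library.

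Absence was rarer at higher control counts. The classes use the same counts as the rule, and more salinity counts are expected at higher control counts, so this is a description. Among models with at least 200 but under 400 control counts, 48 of 3227 had no salinity count (1.49%, exact binomial interval 1.10 to 1.97%). Among those with at least 400 but under 1000 it was 22 of 5414 (0.406%, 0.255 to 0.615%), and among those with at least 1000 it was 26 of 8910 (0.292%, 0.191 to 0.427%). The intervals treat gene models as independent draws and hold neither counting error nor differences between libraries. The 3 loci left out by name are not in these counts. In the highest class, models at 0 were similar in number to those with a few counts: 20 had 2 to 4 salinity counts and 18 had 6 to 12, although at least 331.4 were expected of each. In the lowest class, 27 had 2 to 4, 72 had 6 to 12 and 819 had 14 to 50.

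**Figure D2:**
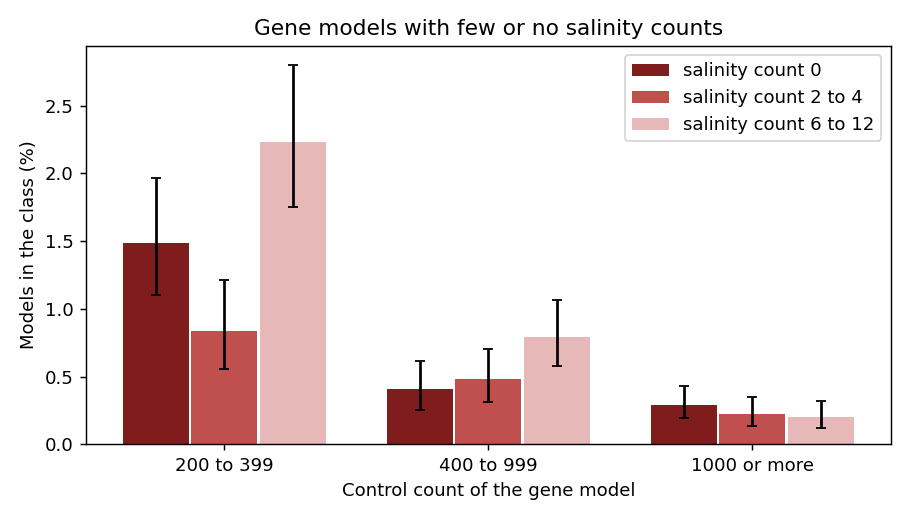
Percent of gene models with 0, 2 to 4 or 6 to 12 salinity counts in 3 classes of control count, with exact 95% binomial intervals as bars. The share at 0 is 1.49% in the lowest class and 0.292% in the highest, where the intervals of the 3 salinity classes overlap.

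The reverse pattern was less common at the same count. With 0 control counts, 9 models had at least 200 salinity counts, the highest of them 1386. Because the control library is deeper, a model needs only 66.3 salinity counts to match the rule by library totals, and 24 models reached that. The difference between 96 and 24 compares these 2 libraries and was not tested.

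Members lay on all 12 chromosomes, and their share of the models with at least 200 control counts differed between chromosomes, which was not tested. Chromosome 10 had 11 members among 885 such models (1.24%), the highest share, and chromosome 3 had 6 among 2449 (0.245%), the lowest. Chromosome 4 held the most members, 13 of 1509 models (0.861%), with a median of 286 control counts and a range of 204 to 2184. Chromosome 11 followed in share with 8 of 835 (0.958%), at 220 to 1314 control counts. The members on chromosome 10 were also abundant, with a median of 1353 control counts and none below 468.

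Chromosome 1 held 10 members of 201 to 14388 control counts and chromosome 2 held 8 of 206 to 20292, which were 0.387% and 0.384% of their models. Chromosome 5 held 10 members of 218 to 1083 control counts, chromosome 6 held 9 of 210 to 1712, and chromosome 12 held 6 of 256 to 1007. On these 3 chromosomes no member exceeded 1712 control counts. Chromosomes 7, 8 and 9 held 5 members each, with highest control counts of 1578, 3159 and 1199. By strand, 44 members were on plus and 52 on minus.

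Members were shorter and had fewer exons than other models of at least 200 control counts. Their exon length had a median of 1370.5 bases and ran from 234 to 4957 bases, against a median of 1855 bases in the 17455 other models. Of the members, 24 (25%) were under 1000 exon bases, against 11.9% of the other models. Members consisted of 1 exon block in 28.1% (27 genes), against 13.9% of the other models, and the median was 2 blocks in members and 5 in the others. Of the 26 members with at least 1000 control counts, 9 had 1 block and 16 had at most 2. The same shares were not computed for other models of at least 1000 control counts. The median control count also differed, at 420 in members and 1027 in the other models, and its part in the length difference was not tested.

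**Figure D3:**
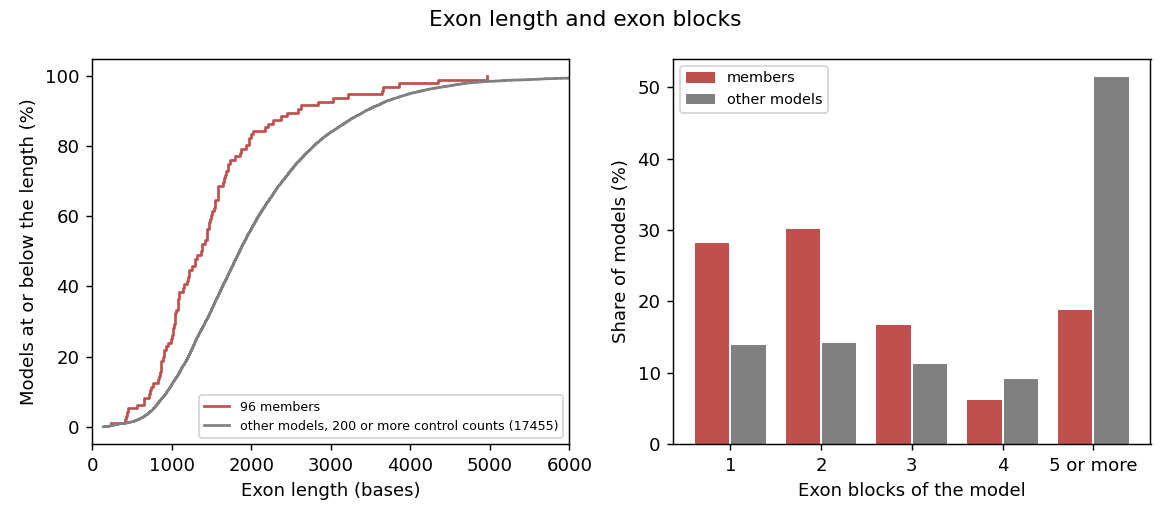
Left, cumulative percent of models against exon length in bases, for the 96 members (red) and the 17455 other models with at least 200 control counts (grey). Right, percent of models by number of exon blocks. The members' curve lies to the left, with a median of 1370.5 against 1855 bases, and 28.1% of members against 13.9% of other models have 1 block.

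Shared exon bases can pass reads from one model to another, and the sources used here do not say whether counting used strand. Among the members, 4 share exon bases with another model, each with a partner on the opposite strand. Of all 55986 gene models, 1645 share exon bases. Whether the share differs between members and other models was not tested. The partners of LOC_Os04g52720, LOC_Os06g36210 and LOC_Os09g29210 kept salinity counts: LOC_Os04g52710 had 386 salinity and 1062 control counts, LOC_Os06g36220 had 68 and 143, and LOC_Os09g29200 had 316 and 824. The partner of LOC_Os09g13440, LOC_Os09g13430, had 0 salinity and 2 control counts. Reads of near-identical copies may also have been split or lost. Whether neighbouring members such as LOC_Os10g05980 and LOC_Os10g05990 are such copies was not tested, because no sequences were used.

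The counts of neighbouring models were not used by the rule. The stretches described here were picked after their counts were seen and so carry no test. The stretch on chromosome 10 from 2999296 to 3032720 held 6 models, of which 5 were measured. The 2 members are lower because of the rule. The 3 other models were also lower by the size rule, on the deposited counts and on the read-pair scale. Such a call applied to 10.3% of all 26638 measured models on the deposited counts, and to 5.17% on the read-pair scale. Without the 2 members, the other 3 summed to 98 salinity and 34219 control counts, where 11340 salinity counts were expected, 97.0-fold lower after scaling. Next to the members, LOC_Os10g05970 had 8 salinity and 16262 control counts, a log2 ratio of -9.05 with a read-pair interval of -12.2 to -7.29. LOC_Os10g06000 had 86 salinity and 12609 control counts, a log2 ratio of -5.34 (-6.03 to -4.74), and LOC_Os10g05950 had 4 and 5348. Beyond this stretch the counts differed less, with LOC_Os10g05940 at 32 salinity and 219 control counts and LOC_Os10g06130 at 1392 and 3862, and neither passed the rule.

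Counting pairs of members less than 100 kb apart, there were 8, with 16 members in all. LOC_Os06g21250 (0 salinity and 501 control counts) and LOC_Os06g21270 (0 and 1593) lie 9157 bases apart on chromosome 6. The stretch around them, 12252282 to 12313370, held 7 measured models. Besides the 2 members, which are lower because of the rule, 4 of the other 5 were lower, and 3 on the read-pair scale. Among the other models, LOC_Os06g21240 had 36 salinity and 1536 control counts, LOC_Os06g21210 had 84 and 1334, and LOC_Os06g21230 had 12 and 512. Without the 2 members, the other 5 models summed to 132 salinity and 3423 control counts, 7.21-fold lower, while LOC_Os06g21330 just outside had 272 salinity and 500 control counts.

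Nearer the start of chromosome 6, between 1116675 and 1175251, all 6 measured models had 0 salinity counts. The members there were LOC_Os06g03120, with 323 control counts, and LOC_Os06g03050, with 220. The other 4, LOC_Os06g03150, LOC_Os06g03080, LOC_Os06g03040 and LOC_Os06g03110, had 101, 49, 42 and 12 control counts. These 4 summed to 0 salinity and 204 control counts, where 67.6 were expected. By the size rule 3 of these 4 were lower, and 0 on the read-pair scale. The 2 members are lower because of the rule. On chromosome 4, LOC_Os04g24310 and LOC_Os04g24340, with 261 and 340 control counts, enclosed LOC_Os04g24319 and LOC_Os04g24328, which had 0 salinity counts as well and 42 and 13 control counts. Only 13.9 and 4.31 salinity counts were expected of the enclosed models, and neither was lower on the read-pair scale.

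**Figure D4:**
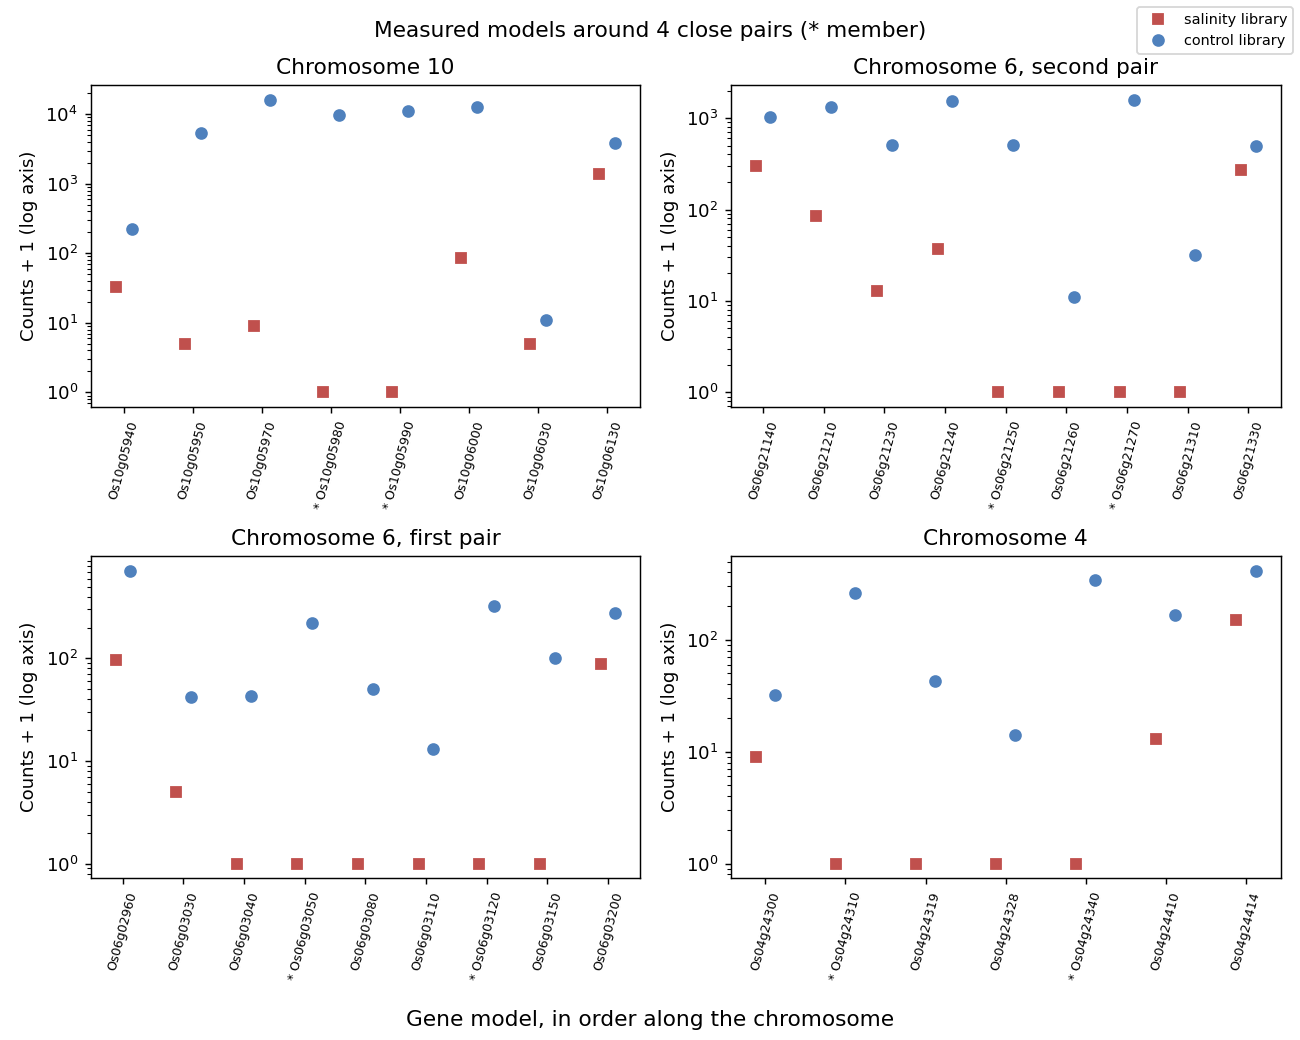
Counts plus 1, on a log axis, of measured models in order along the chromosome around 4 close pairs of members (starred); red squares are the salinity library and blue circles the control library. On chromosome 10 the models beside the pair hold 4 to 86 salinity counts against 5348 to 16262 control counts. In the panel of the first pair on chromosome 6, a run of 6 models, the 2 members among them, is at 0 in the salinity library.

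The other close pairs had no such run around them. LOC_Os04g28520 and LOC_Os04g28620, with 0 salinity and 2184 and 1637 control counts, followed each other among measured models on chromosome 4, and LOC_Os04g28480 and LOC_Os04g28780 on either side had 468 and 68 salinity against 1307 and 150 control counts. LOC_Os05g36990 and LOC_Os05g37030, with 494 and 269 control counts, also followed each other. LOC_Os05g03972 and LOC_Os05g04020, with 245 and 218 control counts, were separated by LOC_Os05g04000, which had 214 salinity and 662 control counts. ADC2 and LOC_Os04g01810 (390 control counts) had LOC_Os04g01710 between them at 12 salinity and 2006 control counts, but also LOC_Os04g01740 at 5848 salinity and 2036 control counts, a log2 ratio of 3.37.

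Over all 96 members, the next measured model on either side, with members left out, gave 184 models. On the deposited counts, 37 of these were lower (20.1%, exact binomial interval 14.6 to 26.6%), 15 were higher (8.15%) and 132 were neither. Among all measured models, 10.3% were lower and 10.6% higher. The interval treats the 184 models as independent draws and holds no difference between libraries. On the read-pair scale 15 of the 184 were lower (8.15%), against 5.17% of all measured models. No interval was computed for this share, so whether it differs from that of all measured models was not tested. Models at 0 salinity counts made up 14.7% of the neighbours (27) and 5.62% of all measured models. The median log2 ratio was -0.30 in the neighbours and -0.08 in all measured models. Counting neighbours that are members, neither neighbour was lower for 58 members, a single one was for 33, and both were for 5. Of the members, 6 are next to another member, and such a neighbour is lower because of the rule. It enters these numbers without being a result. The matching shares for all measured models were not computed, so these numbers do not show whether members stand alone more or less often. The neighbours had a lower median count in the control, 295 against 480 in all measured models, and the part of this in the share at 0 was not tested.

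**Figure D5:**
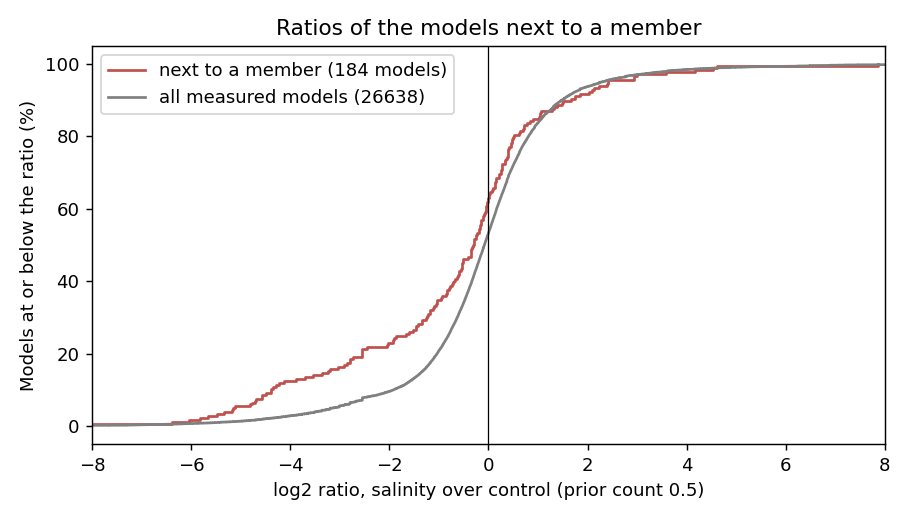
Cumulative percent of models against the log2 ratio of salinity over control, for the 184 models next to a member (red) and all 26638 measured models (grey). The curves differ mainly at negative ratios, with 20.1% of the neighbours and 10.3% of all models lower by the size rule on the deposited counts. On the read-pair scale these shares are 8.15% and 5.17%.

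Several of the lower neighbours were far more abundant in the control than the member beside them. LOC_Os12g02300 had 260 salinity and 18435 control counts beside LOC_Os12g02290, with 0 and 264. LOC_Os02g20560 had 40 salinity and 12138 control counts, a log2 ratio of -6.38 (-7.46 to -5.52), beside LOC_Os02g20540. LOC_Os03g18220 had 1748 salinity and 45443 control counts, a log2 ratio of -2.85, beside LOC_Os03g18250, with 0 and 217. In these pairs the neighbour was low but not absent in the salinity library. LOC_Os02g57120 had 44 salinity and 5695 control counts beside LOC_Os02g57110, and LOC_Os10g11889 had 20 and 1897 beside AT1.

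The most abundant member, LOC_Os02g44320, lay between a neighbour that was not lower and one that was. LOC_Os02g44310 upstream had 9380 salinity and 18083 control counts, a log2 ratio of 0.90 (0.83 to 0.97). LOC_Os02g44330 downstream had 72 salinity and 665 control counts, a log2 ratio of -1.35 (-2.13 to -0.68), and was lower on the deposited counts but not on the read-pair scale. For other abundant members neither neighbour was lower. Beside LOC_Os01g14850, LOC_Os01g14840 had 200 salinity and 716 control counts and LOC_Os01g14860 had 1248 and 5488, with log2 ratios of 0.01 and -0.29. Beside ROC3, LOC_Os10g42500 had 528 salinity and 1575 control counts and LOC_Os10g42460 had 4 and 24. Beside KCS20, LOC_Os10g28050 had 296 salinity and 2061 control counts and LOC_Os10g28080 had 272 and 1244. Upstream of EP3A, LOC_Os01g67970 had 120 salinity and 359 control counts, a log2 ratio of 0.27, and downstream LOC_Os01g68000 had 0 and 26 and was not called lower.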

How the data were processed

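The authors deposited 1 table of whole-number counts for each gene model in 1 salinity and 1 control library, with exon positions and exon length. The labels' protocols give 800 ng of total RNA, poly(A) selection and a NEBNext Ultra II kit. The submitters' processing notes name FastQC, MultiQC, STAR, featureCounts and DESeq2. The sources used here give no versions, genome build, annotation or counting options, and coordinates are those of the deposited table.

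Expected counts are control counts times the ratio of library totals. TMM factors came from edgeR 4.0.16 in R 4.3.3, over the measured models (10 or more counts, both libraries summed), and DESeq2 1.42.0 size factors were an alternative. Log2 ratios use a prior count of 0.5. Intervals of ratios are exact conditional binomial (Clopper-Pearson) at 95%, printed on the read-pair scale, while calls use the deposited counts. The read-pair scale is an assumption and approximate, since many control counts are odd and some salinity counts are not multiples of 4. Without molecular identifiers, PCR copies are counted as if independent, and the intervals of ratios and the floors hold counting error alone. Intervals of shares of models treat the models as independent draws. Other steps ran in Python 3.11.15 with scipy 1.17.1, pandas 2.3.3, numpy 2.4.6 and, for figures, matplotlib 3.10.9. The code of the rule and the calls was run on simulated independent (Poisson) counts with known changes. There a read pair does not add several counts, so the run does not check calls on the deposited counts. Models set to 0 in the simulation meet the salinity part of the rule by construction.

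The members, the marker lists and the rules were chosen with earlier results of these data known. By rule, the text names the 20 most abundant members, the next 10 per kilobase, adjacent members, those at the edges of the rule and neighbours of adjacent members. The named members, the stretches, the other neighbours and the 100 kb limit were chosen after their values were seen. Names and marker loci were written by hand, and names were accepted where the RefSeq table has the name on the same chromosome with a span within 25% and a place within 100 kb, after allowing for the local shift between assemblies. That held for 11 of 12. Of the leaf markers, RBCS2 and LHCB2 were not found there and RBCS4 was not analysed here. No sequences were used.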

Additional observations from a re-analysis of the deposited data

How the results depend on the processing

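The number of members depends on the rule. It was 96 as given, 183 with at least 100 control counts, 48 with at least 400, 26 with at least 1000 and 169 with up to 4 salinity counts. It was 92 without models that share exon bases and 91 with at least 500 exon bases. The median expected salinity count was 139.2 from library totals, 116.7 with TMM, 114.2 with DESeq2 size factors, 120.1 with upper-quartile factors and 34.8 pairs on the read-pair scale. The median fold bound was 9.73, and 38.9 with a floor of 3 counts or 11.6 with library totals. The share of all models called lower was 10.3%, and 14.9% with library totals, 8.80% with no filter, 3.14% beyond 4-fold and 5.17% on the read-pair scale. The share of neighbours called lower was 20.1% and ranged from 15.1% with 3 neighbours on each side to 25% with library totals. It was 8.15% on the read-pair scale, an alternative chosen after seeing the data. Including neighbours that are members, which are lower because of the rule, gave 22.6% and was also chosen after seeing the data. The reverse set held 9 models, and 24 with the minimum scaled by library totals. The counts and bounds move by the construction of each alternative. No paired analysis was possible because each group has 1 library, and for the same reason no replicate could be left out. Depth limits the weakest members: at 200 control counts, 16.6 salinity read pairs were expected.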
